A study of Mus musculus with 40 samples.

Results

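Whether earlier injury with 3,5-diethoxycarbonyl-1,4-dihydrocollidine (DDC) changed the hepatic response to HFD was asked of 22 of the 40 libraries of the series. Each library was taken as 1 mouse. The question was put as an interaction, the log2 fold change of DDC+HFD against DDC+Cont minus the log2 fold change of HFD against Control 28D. A positive interaction therefore means a more positive, or less negative, HFD effect after DDC. The DDC+HFD mice (n = 6) received DDC first and HFD second, and the DDC+Cont mice (n = 5) received DDC first and BD second. The HFD mice (n = 6) received BD first and HFD second, and the Control 28D mice (n = 5) received BD at both steps. All were adult male C57BL/6 mice, and DDC was mixed into the diet at 0.05% w/w to produce chronic fibrosis. What BD and HFD stand for is not written out in the labels. Of the 4 group names only Control 28D carries a time (28D), and the labels state a length of up to 28 days and a gastric tube only for the ethanol given to other groups of the series. They hold no measure of fibrosis or fat in these animals. The word after is used below for the first treatment only, so the HFD effect after DDC is DDC+HFD against DDC+Cont, and the HFD effect after BD is HFD against Control 28D.

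DDC is a porphyrinogenic compound that blocks heme synthesis, plugs small bile ducts with pigment and causes portal scarring around proliferating duct cells. Much of that injury is known to regress once the compound is withdrawn. A diet rich in fat is handled by hepatocytes through nuclear receptors: PPAR-alpha turns on fatty acid oxidation, SREBP-1 drives fat synthesis, and CAR and PXR turn on cytochrome P450 genes of the Cyp2b, Cyp2c and Cyp3a families. Injured livers can also hold neutrophils, macrophages and duct cells, whose transcripts are read together with those of hepatocytes. In RNA from whole liver, a change in the number of cells of a type and a change in RNA per cell cannot be told apart.

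The 22 libraries held 7249760 to 23168537 reads on genes (median 14140767). Levels are given as CPM, the reads on a gene relative to the library total, which TMM factors correct for composition. The contrasts were tested in 14355 genes with edgeR (quasi-likelihood F test), p-values were adjusted over all of them by the Benjamini-Hochberg method, and a gene was called at an adjusted p under 0.05. Genes typical of hepatocytes were abundant in all libraries, 19 of them summing to 74373 to 127601 CPM. Some libraries stood apart. The summed CPM of 16 genes of the exocrine pancreas exceeded 1000 in 5 of the 22 libraries, namely DDC+HFD replicates 30, 33 and 36, DDC+Cont replicate 24 and HFD replicate 14. A clock score was the mean log2 of CPM plus 1 of Arntl, Npas2 and Clock minus that of Dbp, Tef, Hlf and Per3. It averaged 0.710 ± 1.13 in DDC+HFD livers and 2.20 ± 0.102 in DDC+Cont livers, with no overlap. That difference of -1.49 had p = 0.00433 by an exact two-sided permutation test, the smallest p these group sizes allow, and an adjusted p of 0.0173 over 4 such tests. The same score averaged 1.56 ± 0.521 in HFD livers and 1.98 ± 0.239 in Control 28D livers, and the groups overlapped (exact permutation p = 0.134, adjusted p = 0.242). Earlier results of these data had shown both the clock and the pancreas score to stand apart. The p-values therefore describe a separation already seen and are not an independent test of it. The part that sampling time or adherent pancreas played in the results was not tested, and the refits named below give values only. Some families, such as the Cyp2b and Cyp2c genes, have near-identical copies, and between 21.4% and 28.7% of reads aligned to more than 1 place and were tallied apart from the genes, so levels of single copies are uncertain.

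No gene carried an interaction past the threshold. edgeR's quasi-likelihood test with Benjamini-Hochberg adjustment called 0 of 14355 genes (0%), and the smallest adjusted p was 0.210. At an unadjusted p under 0.05 stood 1087 genes (7.57%), of which 615 (4.28%) had a positive interaction and 472 (3.29%) a negative one. DESeq2's Wald test called 2 genes, Zcchc11 and Serpini2, the second of which is known from the pancreas and had no read in any Control 28D library.

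How precisely the interaction was estimated is given by its intervals, which are per gene and not adjusted for the number of genes tested. They do not give the size that would have been called, because a call needed an adjusted p under 0.05. Zcchc11, described below, had an interaction of 0.75 with an interval of 0.44 to 1.05. It was not called by edgeR's quasi-likelihood test (adjusted p = 0.210). The median standard error of the interaction was 0.20 on the log2 scale, against 0.14 for either HFD effect alone, and the 95% interval reached a median of 0.41 to either side. It lay wholly between -1 and 1 for 10853 genes (75.9% of the 14297 with a standard error), so a difference of more than 2-fold between the HFD effects fell outside the interval there. It lay within a 1.5-fold difference for 7052 of the same genes (49.3%). For the other genes an interaction of that size was not excluded by these data. The 58 genes without a standard error, among them Ltf, are not counted here.

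The HFD effects themselves were called at very different counts. After DDC, edgeR's quasi-likelihood test called 488 genes at an adjusted p under 0.05 (3.4% of those tested), 268 higher (1.87%) and 220 lower (1.53%) with HFD. After BD it called 54 genes (0.376%), 31 higher (0.216%) and 23 lower (0.16%). Of these, 21 genes were called in both, 4.30% of the calls after DDC and 38.9% of those after BD, all 21 in the same direction. Without DDC+Cont replicate 24, 25 or 28 the count after DDC was 301, 167 or 288, and without DDC+HFD replicate 33 it was 225. Without Control 28D replicate 9, 10, 11 or 13 the count after BD was 34, 26, 25 or 26, and without HFD replicate 14, 16 or 17 it was 35, 31 or 29. The unequal counts are not a test of the interaction, which called 0 genes over the same table.

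Across all tested genes the HFD effects after DDC and after BD had the same sign in 59.1%, with a Pearson r of 0.388 and a Spearman rho of 0.285. These are correlations over genes, and genes do not vary independently of each other. The Pearson r was 0.646 without DDC+Cont replicate 24 and 0.153 without the filter on low counts, with a jackknife standard error of 0.301 over the 22 libraries. The 2 effects share no library, but they share the estimate of spread. Among the 488 genes called after DDC, 402 (82.4%) had the same sign after BD, with a median size of 0.66 (log2) where they were called and 0.18 in the other comparison, counted in the called direction. Among the 54 genes called after BD, 51 (94.4%) had the same sign after DDC, with medians of 1.01 where called and 0.46 in the other comparison. A gene that passes a threshold in 1 comparison tends to have a smaller value in another, so these medians describe the lists and test nothing. For the 21 genes called in both, the median sizes were 1.50 after DDC and 1.38 after BD.

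**Figure D1:**
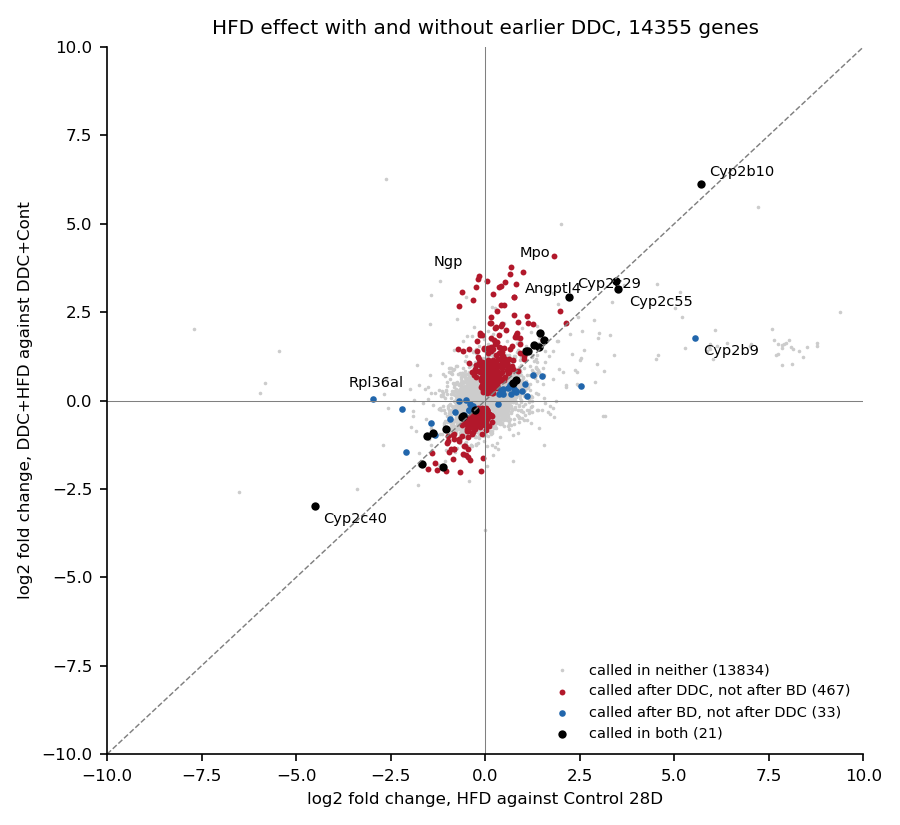
Each point is 1 of 14355 genes, with the log2 fold change of HFD against Control 28D on the x axis and that of DDC+HFD against DDC+Cont on the y axis. Genes called in both comparisons (black, 21 genes) lie near the dashed line of equal effects, genes called only after DDC (red) spread along the y axis, and genes of the exocrine pancreas (grey, far right), high in a few libraries, have a large value on the x axis without a call.

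The response shared by both settings was led by cytochrome P450 genes of the Cyp2b and Cyp2c families, oxidising enzymes of drugs and steroids that CAR and PXR are known to control. Of the 21 genes called in both, 12 were higher and 9 lower with HFD. The 12 held 7 genes of these families: Cyp2b10, Cyp2c29, Cyp2c37, Cyp2c50, Cyp2c54, Cyp2c55 and the pseudogene Cyp2c53-ps. Promoters of the 2 of them with the smallest adjusted p after DDC, Cyp2c29 (chr19:39286835-39287134, plus strand) and Cyp2b10 (chr7:25897408-25897707, plus strand), are shown because these genes carry the shared response. They are RefSeq sequences of GRCm38.p6, each 300 bases and written 5′ to 3′. RefSeq places the start of Cyp2c29 downstream of the GENCODE start given below, so its window lies inside the gene as GENCODE draws it. Capitals mark AGGTCA, the hexamer that many nuclear receptors bind, searched on both strands (TGACCT on the other).
Cyp2c29: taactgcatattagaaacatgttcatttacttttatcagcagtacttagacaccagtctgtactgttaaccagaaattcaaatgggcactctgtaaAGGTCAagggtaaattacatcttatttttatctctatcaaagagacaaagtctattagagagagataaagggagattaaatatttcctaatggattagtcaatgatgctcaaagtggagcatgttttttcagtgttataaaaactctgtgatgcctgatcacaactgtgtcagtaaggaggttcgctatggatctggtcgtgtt
Cyp2b10: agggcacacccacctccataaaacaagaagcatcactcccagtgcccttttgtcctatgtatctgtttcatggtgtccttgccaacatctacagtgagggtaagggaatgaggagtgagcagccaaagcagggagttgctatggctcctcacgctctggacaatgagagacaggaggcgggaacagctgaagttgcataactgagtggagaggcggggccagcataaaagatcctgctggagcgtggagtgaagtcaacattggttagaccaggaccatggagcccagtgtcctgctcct
The hexamer occurred in the Cyp2c29 window and not in that of Cyp2b10. Of the genes of these families called in both, in either direction, 6 have a promoter in the table, and 1 of them held it. The genes looked up for this count also included Cyp2c40, which was lower with HFD. The hexamer occurred in 16.3% of 32851 promoters of the same length. No match says only that these letters are missing from this window.

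Cyp2b10 (chromosome 7, 25897620 to 25926624, plus strand, GENCODE vM21 on GRCm38/mm10, protein coding) is the classic CAR target of mouse liver. It ranged from 328 to 798 CPM in DDC+HFD livers (median 498), against 9.13, 9.33, 3.30, 9.69 and 5.30 CPM in DDC+Cont livers. In HFD livers it ranged from 476 to 895 CPM (median 677), against 15.4, 3.50, 11.7, 25.2 and 9.55 CPM in Control 28D livers. Every HFD-fed liver stood far above every BD-fed one, with or without earlier DDC. The log2 fold changes were 6.12 ± 0.51 after DDC and 5.71 ± 0.50 after BD (± SE), and the interaction was 0.41 with a 95% interval of -1.05 to 1.87 (edgeR's quasi-likelihood test, adjusted p = 0.903). An interval this wide holds a difference of over 2-fold in either direction.

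Cyp2c29 (chromosome 19, 39269405 to 39330713, plus strand, protein coding), an abundant CAR-controlled P450, ranged from 4100.4 to 6636 CPM in DDC+HFD livers (median 4849), against 747, 638, 579.8, 687 and 669 CPM in DDC+Cont livers. Without earlier DDC it ranged, in HFD livers, from 4402 to 6081 CPM (median 5570.1), against 1369.8, 753, 1181, 1404 and 1213 CPM in Control 28D livers. The HFD-fed groups overlapped, while the DDC+Cont livers all lay below the Control 28D livers. The log2 fold changes were 2.94 ± 0.19 after DDC and 2.20 ± 0.19 after BD, and the interaction of 0.73 (95% interval 0.18 to 1.29) had an unadjusted p of 0.0111 and an adjusted p of 0.554 by edgeR's quasi-likelihood test. It ran from 0.65 to 0.93 over the alternatives, and none of them called it.

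Cyp2c55 (chromosome 19, 39007019 to 39042693, plus strand, protein coding) was low by comparison. It ranged from 17.2 to 33.1 CPM in DDC+HFD livers (median 21.0), against 2.49, 2.86, 3.65, 2.26 and 1.55 CPM in DDC+Cont livers. The HFD livers ranged from 37.3 to 98.3 CPM (median 63.4), against 4.25, 2.67, 6.66, 8.93 and 6.10 CPM in Control 28D livers. Both settings showed a separation without overlap, and all DDC+HFD livers lay below all HFD livers. Its interaction was -0.37 (95% interval -1.61 to 0.87). Cyp2c37, Cyp2c50 and Cyp2c54 had interactions of 0.26, 0.27 and 0.16, with log2 fold changes of 1.57, 1.41 and 1.73 after DDC and of 1.30, 1.14 and 1.56 after BD.

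Of the 17 measured members of the list of CAR and PXR targets, 6 were called higher after DDC and 4 after BD, beside 1.87% and 0.216% of all genes, and the list's median interaction was 0.17, beside 0.01 over all tested genes. Por, the reductase that passes electrons to P450 enzymes, rose after DDC (log2 1.18) and had 0.46 after BD without a call. The interaction of Por was 0.72 with an unadjusted p of 0.0729. Cyp3a11, the main PXR target of mouse liver, was called in neither setting, with 0.07 after DDC and 0.32 after BD (log2). Nr1i2, which encodes PXR itself, had an interaction of 0.37 (unadjusted p = 0.0216, adjusted p = 0.620).

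Genes that fell in both settings included Cps1 and Asl, enzymes of the urea cycle, and Acmsd, which steers tryptophan breakdown away from NAD synthesis. Cps1 (chromosome 1, 67123026 to 67231259, plus strand, protein coding) ranged from 4704 to 5919 CPM in DDC+HFD livers (median 5509), against 6796, 6957, 8288, 8669 and 6433 CPM in DDC+Cont livers. In livers given HFD after BD it ranged from 5193 to 5875 CPM (median 5463), against 8563, 7391, 8856, 8551 and 8187 CPM in Control 28D livers. All HFD-fed livers lay below all BD-fed ones. The fall was 0.45 on the log2 scale after DDC and 0.59 after BD, and the interaction of 0.14 had an interval of -0.12 to 0.41, narrower than that of the median gene. Acmsd had log2 fold changes of -0.93 after DDC and -1.38 after BD, with an interaction of 0.46 (95% interval -0.22 to 1.13), and its DDC+HFD and DDC+Cont libraries overlapped. Cyp2c40, a P450 that is near 0 in many libraries, had log2 fold changes of -3.00 after DDC and -4.50 after BD and an interaction interval of -1.09 to 4.10.

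Tspyl4 and Peg3, the second an imprinted zinc finger gene, were also called in both, Tspyl4 lower (-1.01 after DDC and -1.55 after BD) and Peg3 higher (1.40 and 1.07). Slc22a5, the carnitine importer needed for fatty acid oxidation, was higher in both (0.50 after DDC and 0.73 after BD, interaction -0.23). Of the 21 shared genes, 2 had an interaction with an unadjusted p under 0.05, Cyp2c29 and the predicted gene Gm4956.

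**Figure D2:**
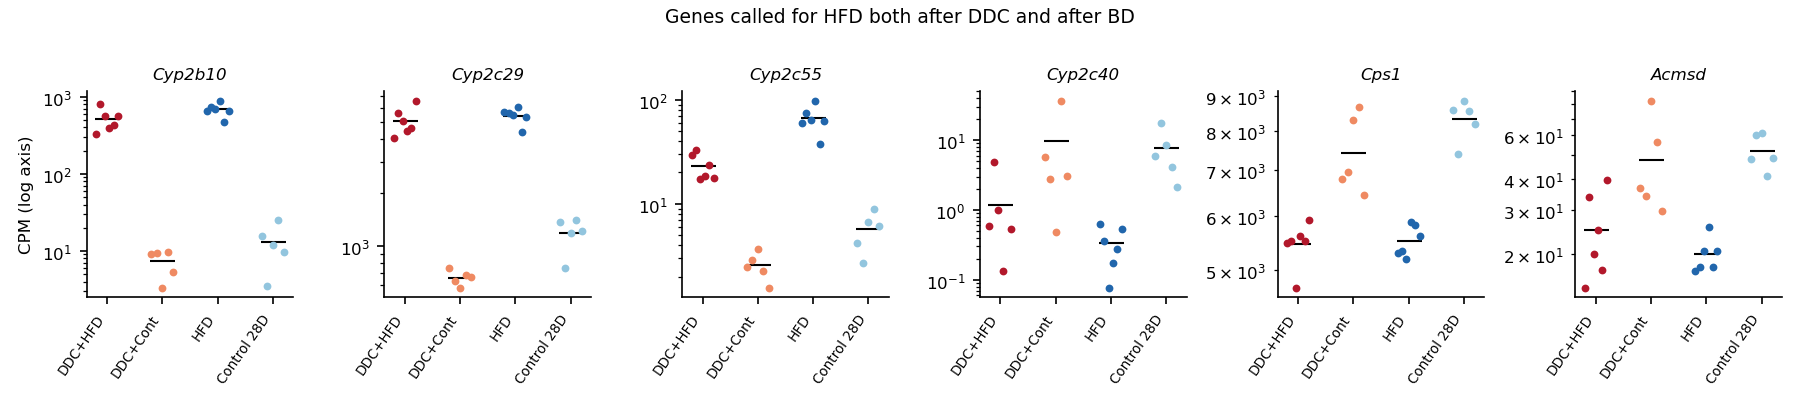
CPM on log axes for 6 of the 21 genes called in both comparisons, 1 point per library and a bar at the group mean, with DDC+HFD, DDC+Cont, HFD and Control 28D from left to right. The 1 DDC+HFD library at 0 for Cyp2c40 cannot be drawn on a log axis. For Cyp2b10, Cyp2c29 and Cyp2c55 the HFD-fed libraries lie above the BD-fed ones with and without earlier DDC.

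The gene with the smallest interaction p was Zcchc11 (listed as Tut4 in GENCODE vM21; chromosome 4, 108459426 to 108559421, plus strand, protein coding), which adds uridines to the ends of small and messenger RNAs. It ranged from 32.6 to 43.2 CPM in DDC+HFD livers (median 40.4), against 25.4, 21.7, 27.4, 26.9 and 22.6 CPM in DDC+Cont livers. In HFD livers it ranged from 23.9 to 27.9 CPM (median 24.9), against 26.9, 25.3, 23.8, 36.5 and 25.6 CPM in Control 28D livers. All 6 DDC+HFD livers stood above the other groups except for 1 Control 28D liver, replicate 12. The interaction was 0.75 ± 0.15 (95% interval 0.44 to 1.05), with an adjusted p of 0.210 by edgeR's quasi-likelihood test and of 0.0264 by DESeq2's Wald test. Without Control 28D replicate 12 it was 0.63, and over the 22 edgeR fits that left out 1 library its adjusted p ran from 0.0604 to 0.615. Zcchc11 rose with HFD after DDC (0.64 ± 0.11) and was not called after BD (-0.10 ± 0.11).

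Among the positive interactions next in order of p, 4 are described here, with adjusted values of 0.371 each. They were Fmn1, a formin that builds actin filaments (1.01 ± 0.23), Slc13a3, a sodium-coupled carrier of dicarboxylates (1.24 ± 0.30), Rbm18, an RNA-binding protein (0.42 ± 0.10), and Tbc1d8, of a family that acts on Rab GTPases (0.89 ± 0.22). Slc13a3 (chromosome 2, 165405028 to 165473230, minus strand) ranged from 25.0 to 54.6 CPM in DDC+HFD livers (median 39.0), against 16.0, 12.3, 11.5, 15.9 and 17.8 CPM in DDC+Cont livers. Without earlier DDC it ranged, in HFD livers, from 20.6 to 36.2 CPM (median 26.2), against 19.6, 20.7, 18.2, 31.4 and 28.9 CPM in Control 28D livers. The groups separated after DDC and overlapped after BD. For Rbm18 the HFD effect was 0.21 after DDC and -0.20 after BD, neither of them called.

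Among the negative interactions, Id3, a target gene of bone morphogenetic proteins that blocks helix-loop-helix factors, had the largest size of the 6 with the smallest p at a group mean of 5 CPM or more. Id3 (chromosome 4, 136143497 to 136145755, plus strand, protein coding) ranged from 17.7 to 38.3 CPM in DDC+HFD livers (median 24.5), against 95.5, 90.5, 75.8, 77.9 and 95.6 CPM in DDC+Cont livers. The HFD livers ranged from 30.4 to 54.8 CPM (median 47.1), against 45.3, 85.3, 58.3, 56.4 and 50.7 CPM in Control 28D livers. After DDC the groups were far apart, and after BD they overlapped. Id3 fell by 1.68 after DDC on the log2 scale and had -0.41 after BD without a call, and the interaction was -1.27 ± 0.33 (95% interval -1.94 to -0.61; edgeR's quasi-likelihood test, adjusted p = 0.371).

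The others were Mtmr4 and Mtmr14, lipid phosphatases of the myotubularin family (-0.63 ± 0.16 and -0.43 ± 0.11), Lrrc14 (-0.47 ± 0.12), Sdf2, a protein of the endoplasmic reticulum (-0.37 ± 0.09), and March8, a membrane ubiquitin ligase (-0.41 ± 0.11). Mtmr4 (chromosome 11, 87592162 to 87616302, plus strand) ranged from 85.7 to 114 CPM in DDC+HFD livers (median 101), against 142, 147, 117, 136 and 136 CPM in DDC+Cont livers. In livers given HFD after BD it ranged from 116 to 150.1 CPM (median 144), against 123, 124, 125, 109.7 and 129.9 CPM in Control 28D livers. DDC+HFD lay below DDC+Cont without overlap, while HFD and Control 28D overlapped. Mtmr14 was called after BD (0.33, higher) and not after DDC (-0.10). None of these genes was called for the interaction by edgeR in any alternative fit.

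**Figure D3:**
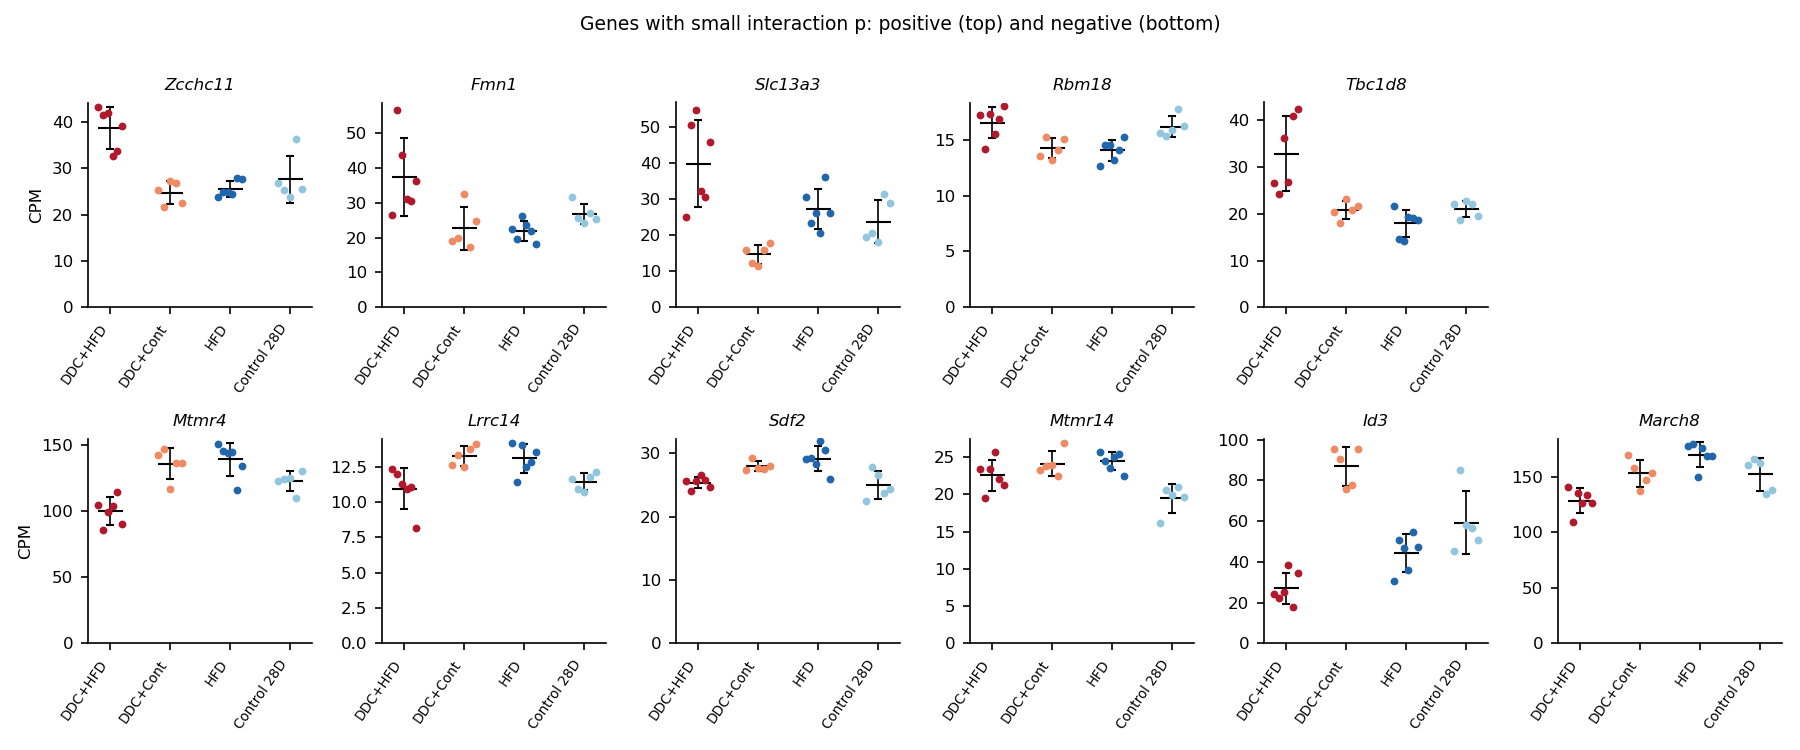
CPM of 5 genes among those with the smallest p of a positive interaction (top row) and of 6 of a negative one (bottom row), 1 point per library with the group mean and SD, groups from left to right DDC+HFD, DDC+Cont, HFD and Control 28D. In Zcchc11, Slc13a3 and Tbc1d8 the DDC+HFD libraries lie above all DDC+Cont libraries, and in Mtmr4 and Id3 below them.

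In the list of apolipoproteins and lipoprotein handling 7 of 16 interactions were positive (median -0.04), and in that of glucose metabolism 12 of 18 (median 0.20), beside 51.9% of all tested genes. At an unadjusted p under 0.05 stood 3 and 2 of them, all positive, beside 4.28% of all genes, and 4 of these are described because their p was among the smallest in their lists. Lpin1, a phosphatidate phosphatase that also acts with PPAR-alpha in the nucleus, ranged from 93.4 to 517 CPM in DDC+HFD livers (median 151), against 47.1, 52.5, 46.9, 59.7 and 75.5 CPM in DDC+Cont livers. In HFD livers it ranged from 53.6 to 96.3 CPM (median 70.3), against 112, 76.5, 95.2, 35.4 and 72.4 CPM in Control 28D livers. The groups separated after DDC and overlapped after BD. The Lpin1 interaction was 2.04 ± 0.54 (95% interval 0.94 to 3.13; edgeR's quasi-likelihood test, unadjusted p = 0.000673, adjusted p = 0.455), and it was 1.55 without DDC+HFD replicate 36, which held the highest value.

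Angptl4 (chromosome 17, 33773750 to 33781830, minus strand, protein coding), a secreted inhibitor of lipoprotein lipase, ranged from 15.1 to 177 CPM in DDC+HFD livers (median 111), against 14.8, 15.6, 7.50, 12.5 and 16.6 CPM in DDC+Cont livers. Without earlier DDC it ranged, in HFD livers, from 26.9 to 55.8 CPM (median 43.5), against 19.4, 21.1, 16.1, 54.0 and 14.7 CPM in Control 28D livers. The groups overlapped in both settings, through 1 low DDC+HFD liver and 1 high Control 28D liver, replicate 12. The interaction was 2.17 ± 0.59 (95% interval 0.97 to 3.37; edgeR's quasi-likelihood test, unadjusted p = 0.000947, adjusted p = 0.455).

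Ppargc1a (chromosome 5, 51454250 to 51567726, minus strand, protein coding), the coactivator that raises mitochondrial and gluconeogenic genes, ranged from 13.2 to 22.3 CPM in DDC+HFD livers (median 15.3), against 6.73, 5.17, 14.2, 9.03 and 7.50 CPM in DDC+Cont livers. The HFD livers ranged from 7.35 to 8.44 CPM (median 8.08), against 9.23, 6.48, 9.95, 9.75 and 8.90 CPM in Control 28D livers. Only DDC+Cont replicate 26 reached the DDC+HFD range. The interaction was 1.15 ± 0.30 (edgeR's quasi-likelihood test, adjusted p = 0.371). Lpin2, of the same family as Lpin1, had an interaction of 0.81, and it rose after DDC (1.11) without a call after BD (0.30). All 4 genes follow feeding or the day in mouse liver as background, and the clock score differed between DDC+HFD and DDC+Cont livers as given above. With that score as a term, the interactions of Lpin1, Angptl4, Lpin2 and Ppargc1a were 2.17, 2.37, 0.82 and 1.20. The score did not overlap between DDC+HFD and DDC+Cont livers, so this fit cannot fully separate it from the groups.

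Neutrophil genes, which encode granule proteins and receptors of these white cells, had the largest positive median interaction of the 35 lists, and none of them was called for it. Of 13 listed genes, 12 passed the filter on low counts and Ly6g did not. The filter keeps genes that have enough reads in 1 group, so a gene high in 1 group and near 0 elsewhere could pass. In DDC+HFD against DDC+Cont livers 11 of the 12 were called higher, beside 1.87% of all genes, with a median log2 fold change of 2.71. In HFD against Control 28D livers 0 of 12 were called by edgeR's quasi-likelihood test, beside 0.216% of all genes, 0 had an unadjusted p under 0.05, DESeq2 called 0, and the median was 0.37. The interaction was positive in all 12, beside 51.9% of all tested genes. It had a range of 0.83 to 3.68 and a median of 2.25, beside 0.01 over all tested genes. At an unadjusted p under 0.05 stood 9 of them, beside 4.28% of all genes with a positive interaction, and 0 after Benjamini-Hochberg adjustment or by DESeq2.

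The summed level of the 13 neutrophil genes varied widely inside the DDC+HFD group. It was 21.6, 769, 1120.0, 407, 41.1 and 243.0 CPM in DDC+HFD replicates 30, 32, 33, 35, 36 and 37, against 31.1, 53.2, 171, 18.9 and 39.7 CPM in DDC+Cont replicates 24, 25, 26, 28 and 29. It ran from 16.9 to 58.6 CPM in HFD livers and was 22.5, 21.3, 19.8, 66.5 and 28.9 CPM in Control 28D livers. In 4 of 6 DDC+HFD livers the sum lay above that of every other library, and in replicates 30 and 36 it lay within the range of the other groups. The 11 calls after DDC fell to 3 without DDC+HFD replicate 33 or without DDC+Cont replicate 25, to 5 without DDC+Cont replicate 24, 28 or 29, and to 6 without DDC+HFD replicate 32. They numbered 3 when only the 22 libraries were fitted and 5 with the clock score as a term. The interaction stayed positive in all 12 genes under each alternative, leave-one-out fits included. These genes do not vary independently of each other, and the high sums lay in 4 livers, so the kept signs are not 12 separate results. The clock score was -0.47, 0.30, 1.84 and -0.63 in the DDC+HFD replicates 32, 33, 35 and 37 with high sums, and 1.81 and 1.40 in replicates 30 and 36. Without the pancreas-bearing libraries all 12 genes were called after DDC, at a median interaction of 2.29, but that fit leaves out DDC+HFD replicates 30 and 36, the 2 with low sums, as well as replicate 33. The part of sampling time in this result was not tested, as the clock term cannot be fully separated from the groups.

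Ngp (chromosome 9, 110419747 to 110423012, plus strand, protein coding), a granule protein of maturing neutrophils, ranged from 0.387 to 89.4 CPM in DDC+HFD livers (median 26.2), against 0.461, 1.89, 10.9, 0.728 and 0.731 CPM in DDC+Cont livers. In livers given HFD after BD it ranged from 0.227 to 2.83 CPM (median 1.23), against 0.923, 0.617, 0.174, 3.55 and 1.87 CPM in Control 28D livers. Its interaction was 3.68 ± 1.30 (95% interval 1.04 to 6.32; edgeR's quasi-likelihood test, unadjusted p = 0.00891, adjusted p = 0.546). Mpo and Elane, the myeloperoxidase and elastase of early granules, had interactions of 3.07 (0.54 to 5.60) and 2.85 (0.89 to 4.80), and Mmp9, a gelatinase of late granules, had 2.06 (0.59 to 3.52). Elane ranged from 0.258 to 17.8 CPM in DDC+HFD livers, against 0.364 to 1.03 CPM in DDC+Cont livers, 0.272 to 0.919 CPM in HFD livers and 0.185 to 1.00 CPM in Control 28D livers. For Ngp, Mpo, Elane and Mmp9, DDC+HFD replicates 32, 33, 35 and 37 each lay above every library of the other groups.

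Promoters of 3 genes of the neutrophil list, the list with the largest positive median, are shown. They are RefSeq sequences of GRCm38.p6 for Ngp (chr9:110419558-110419857, plus strand), S100a9 (chr3:90695672-90695971, minus strand) and Mmp8 (chr9:7558179-7558478, plus strand), each written 5′ to 3′ along its gene. Capitals mark TTGCNNAA, the core that C/EBP factors bind, searched on both strands (TTNNGCAA on the other).
Ngp: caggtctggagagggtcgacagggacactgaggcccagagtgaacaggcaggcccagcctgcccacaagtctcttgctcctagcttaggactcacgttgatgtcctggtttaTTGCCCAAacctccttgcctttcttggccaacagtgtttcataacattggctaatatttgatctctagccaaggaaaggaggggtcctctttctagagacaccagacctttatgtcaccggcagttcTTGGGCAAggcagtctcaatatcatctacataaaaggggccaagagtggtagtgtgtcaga
S100a9: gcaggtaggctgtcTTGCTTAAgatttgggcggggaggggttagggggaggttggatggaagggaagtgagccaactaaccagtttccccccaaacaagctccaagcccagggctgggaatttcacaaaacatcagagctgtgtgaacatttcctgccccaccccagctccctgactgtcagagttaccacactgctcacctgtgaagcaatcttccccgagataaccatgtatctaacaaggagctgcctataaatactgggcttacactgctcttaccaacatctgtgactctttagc
Mmp8: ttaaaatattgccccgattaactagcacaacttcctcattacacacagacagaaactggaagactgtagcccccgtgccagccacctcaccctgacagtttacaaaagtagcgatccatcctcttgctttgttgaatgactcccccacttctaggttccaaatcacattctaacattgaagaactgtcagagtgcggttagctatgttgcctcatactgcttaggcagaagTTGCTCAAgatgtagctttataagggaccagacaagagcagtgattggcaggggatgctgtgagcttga
These letters occurred in 5 of the 11 tested neutrophil genes with a promoter in the table, in 3 of the 6 Cyp2 genes above and in 10.8% of 32851 promoters of the same length. All 3 neutrophil promoters shown hold the letters, so they do not represent the list. Mmp8, 1 of the 3, had an interaction of 0.89 with an interval of -1.36 to 3.14 (edgeR's quasi-likelihood test, unadjusted p = 0.441). A link between the letters and the interaction was not tested. A match is a description of the letters and not a binding site.

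**Figure D4:**
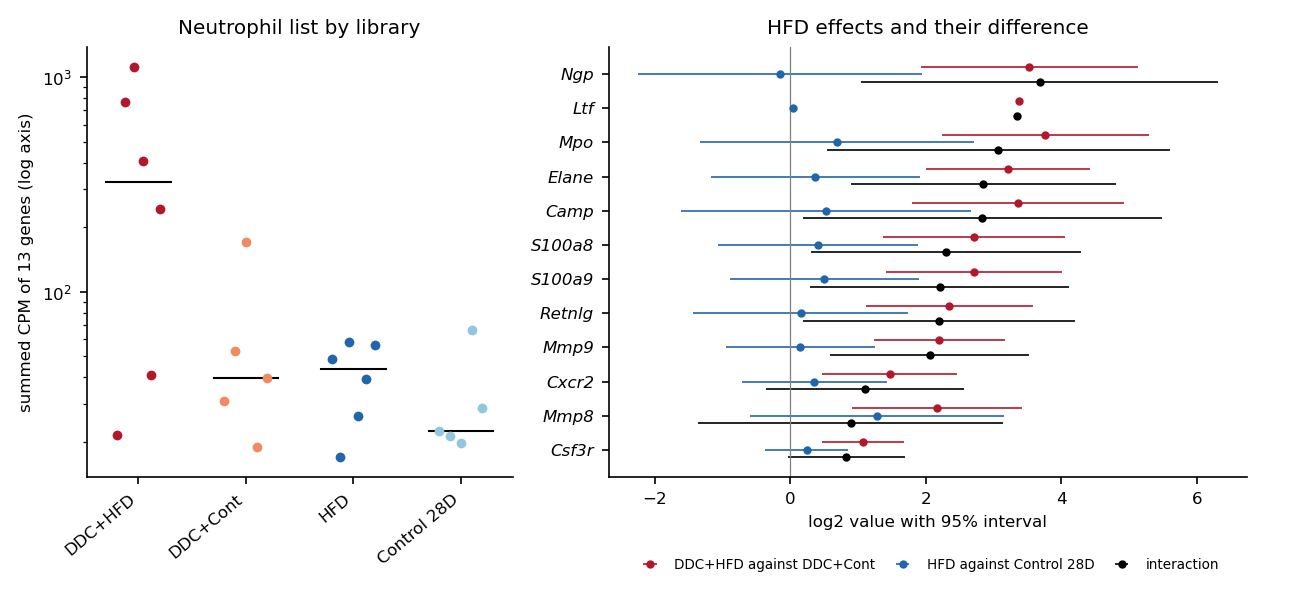
Left, summed CPM of the 13 neutrophil genes on a log axis, 1 point per library and a line at the group median, groups from left to right DDC+HFD, DDC+Cont, HFD and Control 28D. Right, log2 values with 95% intervals for the 12 tested genes: DDC+HFD against DDC+Cont (red), HFD against Control 28D (blue) and the interaction (black); Ltf has no interval. The interaction is above 0 for every gene, and its interval reaches 0 for Csf3r, Cxcr2 and Mmp8.

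Among 22 genes of the acute phase response 20 had a positive interaction, beside 51.9% of all tested genes, with a median of 0.56. Most of the 22 encode plasma proteins that the liver makes in inflammation, and the list also holds Cd14, Socs3 and Steap4. After DDC 2 of the 22 were called higher, beside 1.87% of all genes. They were Cd14, the endotoxin coreceptor (2.16), and Serpina3n, a protease inhibitor (0.92). After BD 0 of 22 were called by edgeR's quasi-likelihood test, beside 0.376% of all genes, with 0 at an unadjusted p under 0.05 and 0 by DESeq2. Cd14 ranged from 4.00 to 36.6 CPM in DDC+HFD livers (median 23.5), against 5.07, 3.79, 6.40, 3.50 and 5.03 CPM in DDC+Cont livers. It ranged from 3.29 to 12.6 CPM in HFD livers (median 4.73), against 3.08, 2.88, 3.65, 7.20 and 4.88 CPM in Control 28D livers. The DDC+HFD and DDC+Cont livers overlapped through 2 of the DDC+HFD libraries, replicates 30 and 36, the same 2 that were low in neutrophil genes. The Cd14 interaction was 1.73 (95% interval 0.41 to 3.05; edgeR's quasi-likelihood test, adjusted p = 0.557).

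Of the other cell type lists, the bile duct epithelium had 3 of 17 genes called higher after DDC by edgeR's quasi-likelihood test, beside 1.87% of all genes, and 4 by DESeq2, and a median interaction of 0.31. After BD 0 were called by either tool, beside 0.376% of all genes called by edgeR, with 2 at an unadjusted p under 0.05. The 3 were Cftr, the chloride channel of duct cells (1.77), Epcam, an adhesion molecule (0.75), and Spp1, osteopontin (0.62). Krt19, the keratin of mature ducts, ranged from 2.22 to 5.74 CPM in DDC+HFD livers (median 3.42), against 1.57, 2.35, 1.51, 2.55 and 1.46 CPM in DDC+Cont livers. It ranged from 0.517 to 1.33 CPM in HFD livers (median 1.15), against 1.72, 1.75, 1.50, 0.820 and 1.22 CPM in Control 28D livers. Every DDC+HFD liver and every DDC+Cont liver lay above every HFD liver, and the DDC+HFD and DDC+Cont groups overlapped. Its interaction was 1.35 (95% interval 0.36 to 2.34; edgeR's quasi-likelihood test, unadjusted p = 0.00839, adjusted p = 0.546), and Sox9 and Krt7, markers of the same cells, had -0.05 and 0.17.

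Of 28 extracellular matrix genes, edgeR's quasi-likelihood test called 0 after DDC, beside 3.4% of all genes. There 3 had an unadjusted p under 0.05 and DESeq2 called 1. After BD edgeR's test called 0 of them, beside 0.376% of all genes, with 1 at an unadjusted p under 0.05 and 0 by DESeq2. For the interaction 1 of the 28 had an unadjusted p under 0.05, Fn1 (fibronectin, 0.60), beside 7.57% of all genes, and the list's median was -0.09. Col1a1, the main chain of collagen of scars, had an interaction of -0.77 with an interval of -2.10 to 0.55, which leaves room for a difference of over 4-fold. Stellate cell genes had 12 of 13 positive interactions with a median of 0.22, and Kupffer cell genes 9 of 10 with a median of 0.39, beside 51.9% positive over all tested genes. Among 17 genes of recruited macrophages 1 was called higher after DDC, beside 1.87% of all genes, Ly6c2 of inflammatory monocytes (1.85, interaction 1.98), while Gpnmb and Trem2 had interactions of -1.88 and -0.92 with intervals that included 0. The lists of T and NK cells and of sinusoidal endothelium had medians of 0.00 and 0.13. The B and plasma cell list had -0.99, and 1.18 without the pancreas-bearing libraries. The exocrine pancreas list had -6.39, and 0.11 without those libraries. They were left out for high sums of these same genes, so that move is built into the choice. Red blood cell genes (4 tested) and fat tissue genes (2 tested) had -1.37 and -2.34.

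Fatty acid synthesis genes, the SREBP-1 program, had close medians of -0.60 after DDC and -0.60 after BD and an interaction median of 0.07. Scd1, the desaturase that makes oleate, ranged from 3895 to 11382 CPM in DDC+HFD livers and from 13502 to 32515 CPM in DDC+Cont livers. It ranged from 7841 to 15114 CPM in HFD livers and from 11766 to 32355 CPM in Control 28D livers. It fell by 1.45 after DDC, and after BD it had -0.96 without a call, with an interaction of -0.49 (95% interval -1.52 to 0.54). Fatty acid oxidation genes had 21 of 24 negative interactions, beside 48.1% of all tested genes, with a median of -0.18. The 2 called higher after DDC, beside 1.87% of all genes, were Cpt1a, the gate of fatty acids into mitochondria (0.46), and Cyp4a31 (1.53). The 2 called lower after DDC, beside 1.53% of all genes, were Ehhadh (-0.66) and Pdk4 (-1.10). After BD 1 was called higher, Vnn1, a PPAR-alpha target (1.50), beside 0.216% of all genes. Lipid droplet and fatty acid uptake genes had 16 of 19 negative interactions, beside the same 48.1%, with a median of -0.25.

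Cd36, a fatty acid transporter, was the 1 lipid droplet or uptake gene called, and it was called higher after BD, beside 0.216% of all genes. It ranged from 156 to 222 CPM in DDC+HFD livers (median 169), against 146, 160.3, 174, 175 and 123 CPM in DDC+Cont livers. In HFD livers it ranged from 121 to 193 CPM (median 149), against 99.6, 88.2, 123, 112 and 54.4 CPM in Control 28D livers. The DDC+Cont livers already held levels near those of the HFD livers. The log2 fold changes were 0.18 after DDC and 0.69 after BD, and the interaction was -0.51 (95% interval -0.93 to -0.09; edgeR's quasi-likelihood test, adjusted p = 0.611).

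Of 24 genes of the unfolded protein and integrated stress response 16 had a negative interaction, beside 48.1% of all tested genes, with a median of -0.32. Of these, 4 had an unadjusted p under 0.05 (Sdf2l1, Hspa5, Manf and Dnajb9), beside 3.29% of all genes. Hspa5, the chief chaperone of the endoplasmic reticulum, ranged from 974 to 1635 CPM in DDC+HFD livers (median 1123), against 1435, 1993, 1194, 1172 and 1395 CPM in DDC+Cont livers. Without earlier DDC it ranged, in HFD livers, from 1090.2 to 1974 CPM (median 1586), against 949, 1164, 1075, 1012 and 971 CPM in Control 28D livers. Groups overlapped in both settings, and neither difference was called. The interaction was -0.86 (95% interval -1.59 to -0.13; edgeR's quasi-likelihood test, adjusted p = 0.620). Chac1 rose after DDC (1.72) and Atf4 fell (-0.45), with interactions of 0.19 and -0.30.

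Cholesterol synthesis genes had 20 of 24 positive interactions, beside 51.9% of all tested genes, with a median of 0.31. That median was 0.05 with the clock score as a term, a fit that cannot fully separate the score from the groups. The part of the clock was not tested. Of 18 circadian clock genes 3 were called higher after DDC (Nr1d2, Per1 and Tef), beside 1.87% of all genes, and 1 lower (Npas2), beside 1.53%, with a median interaction of 0.40. Nr1d2, a clock repressor, ranged from 44.3 to 114 CPM in DDC+HFD livers and from 16.8 to 25.0 CPM in DDC+Cont livers. It ranged from 29.1 to 59.6 CPM in HFD livers and from 16.7 to 39.5 CPM in Control 28D livers, so these groups overlapped. Of 11 periportal genes 4 were called lower after DDC, beside 1.53% of all genes, and 1 after BD, beside 0.16%, with nearly equal medians of -0.46 in both. Medians of the lists of NRF2 targets, heme synthesis, bile acid synthesis, bile transport, cell cycle, p53 targets, interferon response, cytokines, hepatocyte identity and pericentral genes lay between -0.18 and 0.12. Male-biased genes had -0.35 and female-biased genes 0.22. For the interaction neither edgeR's quasi-likelihood test nor DESeq2 called a gene of any of the 35 lists.

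**Figure D5:**
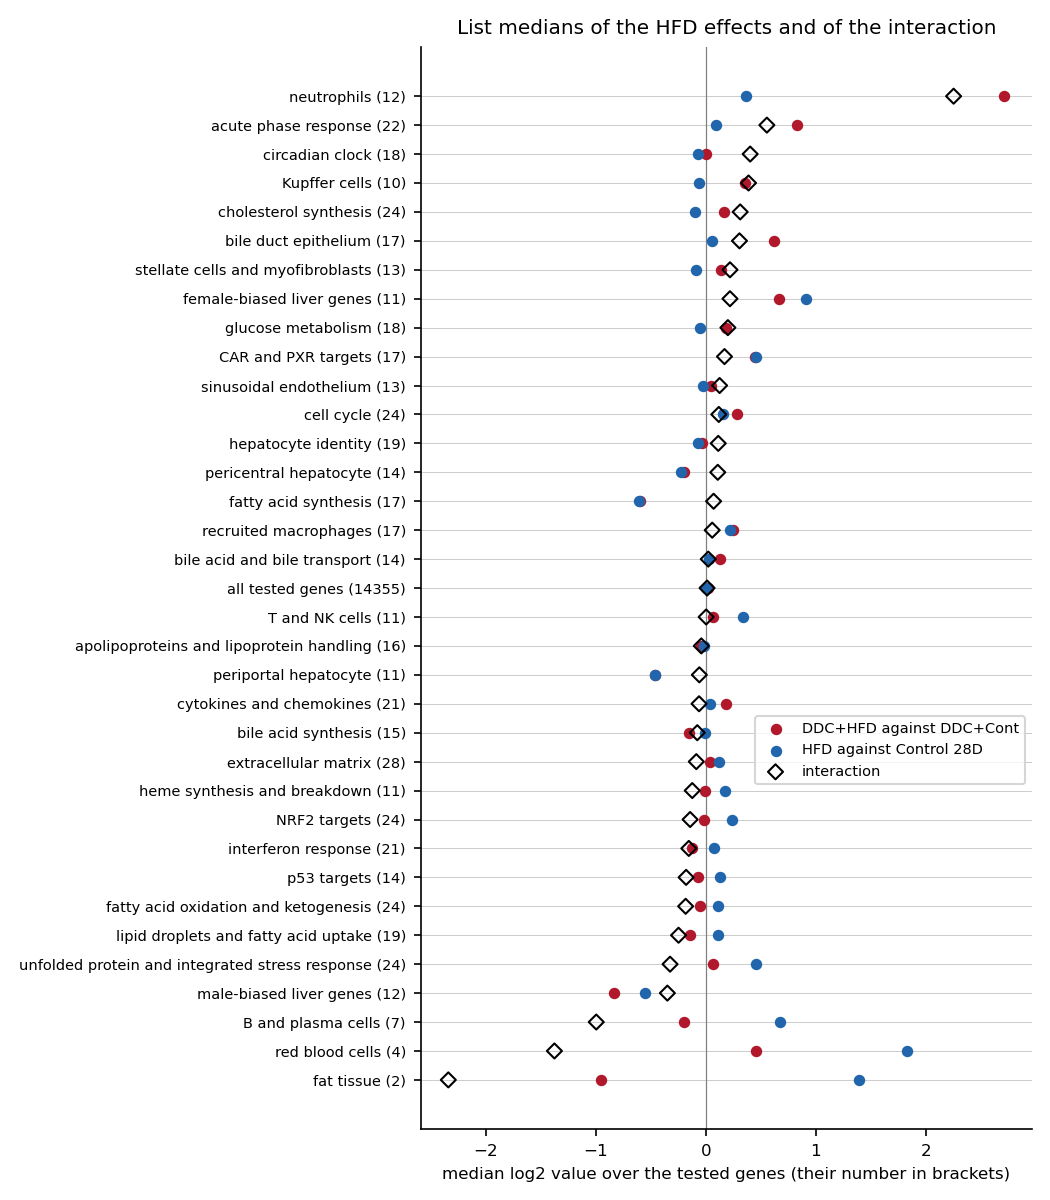
Median log2 values over the tested genes of 34 lists and of all tested genes, for DDC+HFD against DDC+Cont (red), HFD against Control 28D (blue) and the interaction (open diamonds), sorted by the interaction. The neutrophil list stands apart at 2.25, most other lists lie near 0, and the lists at the bottom hold few tested genes; the pancreas list, at -6.39, is left out.

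A few genes were called after BD and not after DDC and had an interaction that was large but not called. Cyp2b9, a P450 that is low in male mouse liver, ranged from 1.89 to 36.0 CPM in DDC+HFD livers (median 11.8), against 1.38, 0.600, 0.0688, 18.6 and 1.28 CPM in DDC+Cont livers. The HFD livers ranged from 5.53 to 45.3 CPM (median 10.2), against 0.185, 0.206, 0.637, 0.365 and 0.215 CPM in Control 28D livers. HFD and Control 28D did not overlap, and DDC+Cont replicate 28 lay inside the DDC+HFD range. The interaction was -3.76 (edgeR's quasi-likelihood test, unadjusted p = 0.00971, adjusted p = 0.546), and -1.26 without that library. Rpl36al, a ribosomal protein gene, was called lower after BD, and 1 Control 28D library, replicate 13, held 4559.6 CPM where the other 21 libraries held 100.4 to 168 CPM. Its interaction was 3.00, and 0.05 without that library. Fndc5, chosen after its values were seen, had the smallest p of the negative interactions (-2.14, unadjusted p = 8.56e-05, adjusted p = 0.371) at means of 1.14, 0.848, 0.963 and 0.160 CPM in DDC+HFD, DDC+Cont, HFD and Control 28D livers.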

How the data were processed

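Liver RNA was sequenced in 40 libraries after preparation with the TruSeq mRNA kit, per the labels' protocols. The authors deposited raw read counts per gene symbol, 1 file per library, with closing tallies of reads on no gene that were left out of totals and tests. Reads on genes made up 41.0% to 49.1% of each of the 22 libraries. Per the submitters' processing notes, mm10, GSNAP and DESeq2 1.12.3 were used, with no role stated. The counting program, annotation and strandedness were not given there, so antisense and overlapping genes cannot be separated. Per library 7249760 to 23168537 reads were on genes.

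All 40 libraries entered 1 fit in edgeR 4.0.16 (R 4.3.3) with 8 group coefficients, TMM factors, filterByExpr by group and robust dispersion, tested by the quasi-likelihood F test with Benjamini-Hochberg adjustment over 14355 genes. Standard errors and 95% intervals come from the fitted coefficients, with the quasi-likelihood spread. CPM values carry no pseudocount. The clock score used log2 of CPM plus 1, as did the gene levels in the search for outlying libraries. Library scores were compared by exact permutation tests (scipy 1.17.1). The script was tested on simulated data. No 2 libraries were duplicates (highest Pearson r 0.995). Groups and replicate numbers came from the labels. Each library was taken as 1 mouse because it has a number of its own; the labels do not state this, and p-values measure the spread between these samples.

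The comparison, its members, the clock and pancreas scores, the 35 gene lists, the named-gene rule and the alternatives were chosen with earlier results of these data known. Where no gene is called, the rule names the 6 genes per direction with the smallest interaction p and a highest group mean of 5 CPM or more. It adds 4 genes per direction for each HFD effect, up to 3 genes per list and a fixed panel, and skips predicted and Mup genes. 1 gene that the rule names is not reported here. Alternatives were median-ratio (RLE) size factors, no filter or a stricter one, a fit restricted to the 22 libraries, non-robust dispersion, a sequencing lane term, DESeq2 1.42.0, no pancreas-bearing libraries, the clock score as a term, and each of 22 libraries left out in turn. Lanes, read from the deposited names, were spread over the groups unevenly. Of the 4 groups, lane 5 held only HFD replicate 16 and DDC+HFD replicate 33, and lane 1 held no DDC+HFD library. Coordinates are GENCODE vM21, and 161 of 161 symbols matched.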

Additional observations from a re-analysis of the deposited data

Results flagged for a closer look

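For 36 genes and 7 library measures in the 4 groups (172 sets of values), a library was looked for whose gap to its nearest neighbour was large against the range of its group, which chance gives in about 1 in 20 sets. There were 17. In Control 28D replicate 12, Zcchc11 stood at 36.5 CPM (others 23.8 to 26.9), Angptl4 at 54.0 CPM (others 14.7 to 21.1) and Elane at 1.00 CPM (others 0.185 to 0.289). In Control 28D replicate 10, Cyp2c29 stood at 753 CPM (others 1181 to 1404) and Ppargc1a at 6.48 CPM (others 8.90 to 9.95), and in replicate 9 Mtmr14 stood at 16.2 CPM (others 19.7 to 21.0).

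Rpl36al was 4559.6 CPM in Control 28D replicate 13 (others 119 to 142) and 168 CPM in DDC+HFD replicate 37 (others 103 to 117). In that DDC+HFD library Lrrc14 was 8.18 CPM (others 10.9 to 12.3) and the TMM factor 0.897 (others 0.975 to 1.01). Cps1 was 4704 CPM in DDC+HFD replicate 33 (others 5467 to 5919). In DDC+Cont replicate 24 the pancreas genes summed to 4046 CPM (others 7.14 to 34.9) and the clock score was 2.02 (others 2.20 to 2.27), and in DDC+Cont replicate 28 Cyp2b9 was 18.6 CPM (others 0.0688 to 1.38). March8 was 149.6 CPM (others 168 to 179) and Cftr 0.766 CPM (others 0.0861 to 0.227) in HFD replicate 16, and Krt19 was 0.517 CPM (others 1.08 to 1.33) in HFD replicate 17.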

How the results depend on the processing

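The interaction had 0 calls in every alternative except DESeq2, which called 2, and in each of the 22 fits without 1 library, where the smallest adjusted p ran from 0.0604 to 0.615. The count of genes called after DDC ranged from 167 to 715 over those 22 fits (301 without DDC+Cont replicate 24, 167 without replicate 25, 288 without replicate 28 and 225 without DDC+HFD replicate 33). It was 299 with sequencing lane as a term and 719 with DESeq2. The count after BD ranged from 25 to 73 (34, 26, 25 and 26 without Control 28D replicates 9, 10, 11 and 13, and 35, 31 and 29 without HFD replicates 14, 16 and 17), and was 130 with DESeq2. Genes called in both numbered 15 to 28 over the 22 fits and 40 with DESeq2. Neutrophil genes called after DDC numbered 3 to 12 over the 22 fits, 3 when only the 22 libraries were fitted and 5 with the clock score as a term. The correlation of the HFD effects ran from 0.274 to 0.646, the highest without DDC+Cont replicate 24, and was 0.153 without the low-count filter and 0.564 with lane as a term; its jackknife standard error over the 22 libraries was 0.301. Zcchc11 crossed the threshold with DESeq2 (adjusted p 0.0264). No called value changed sign, but edgeR called no interaction, so this does not cover the interaction values. Of the named-gene interactions, 25 were marked as moved without the pancreas-bearing libraries and 120 as the same. Over the fits that left out 1 library, 21 values were marked as moved and 3187 as the same. The cause of these shifts was not tested. Genes of neutrophils and pancreas varied widely between livers of a group, and their intervals are wide. No paired analysis was possible because each replicate number was taken as 1 animal and no 2 groups share one.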
